A study of Arabidopsis thaliana with 5 samples.

Results

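Coumarins are phenolic compounds that Arabidopsis roots make from the phenylpropanoid pathway and release into the soil, where catechol-type members reduce and chelate iron. The data described here are the RNA levels of 9 genes of coumarin synthesis and secretion, taken from 33557 features quantified in Arabidopsis thaliana roots. With earlier results of these data known, the 9 were chosen by gene identifier for their known roles. They are F6'H1, F6'H2, COSY, S8H and CYP82C4 for synthesis, BGLU42 and ABCG37 for release, and MYB72 and MYB10 for regulation. RNA-seq libraries came from roots of plants with the genotype GFP-GrxS5 (2 libraries) and of Col-0, the wild type accession (3 libraries). The label joins green fluorescent protein to GrxS5, a plant glutaredoxin, and the study asked which genes GrxS5 represses. The sources used here do not give the construct's promoter, the number of lines, or the plants' age, medium and treatment. Tissue is labelled as root, while the extraction note speaks of both roots and shoots. Since nothing states that the replicates are different plants, each p-value reflects only the spread between these libraries, which may be technical.

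In the pathway, F6'H1 hydroxylates feruloyl-CoA, and COSY helps the product close into scopoletin. S8H hydroxylates scopoletin to fraxetin, and CYP82C4 hydroxylates fraxetin to sideretin. BGLU42 is a beta-glucosidase that frees stored glucosides, and ABCG37, also called PDR9, exports the free coumarins. MYB72 and MYB10 are related transcription factors that act under the basic helix-loop-helix factor FIT when iron is short, and in Arabidopsis several of these genes are known markers of root iron deficiency.

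Of the 9 genes, 6 were lower in GFP-GrxS5 roots, 0 were higher and 3 did not pass the threshold (limma on log2(FPKM + 1), Benjamini-Hochberg adjusted p under 0.05). FPKM is a fragment count scaled to transcript length and to the library's total, so levels of different genes can be compared. The genes that fell were F6'H1, S8H, ABCG37, BGLU42, MYB72 and MYB10, and those that did not pass were F6'H2, COSY and CYP82C4. Over all 19693 genes tested, 2.35% were called lower, 4.73% higher and 7.08% in either direction. Calls with a fall of at least 1 on the log2 scale were 5 of the 9, against 0.523% of genes tested, and only MYB10 of the 6 fell by less. The median log2 change was -1.09 over the 9 coumarin genes and 0.0135 over all genes tested. All 9 passed the filter on low values. Counted from the largest fall among the genes tested, MYB72 ranked 20, S8H 26, F6'H1 71, BGLU42 132, ABCG37 139 and MYB10 200. In RNA from whole roots, fewer cells of a type and less RNA per cell cannot be told apart.

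**Figure D1:**
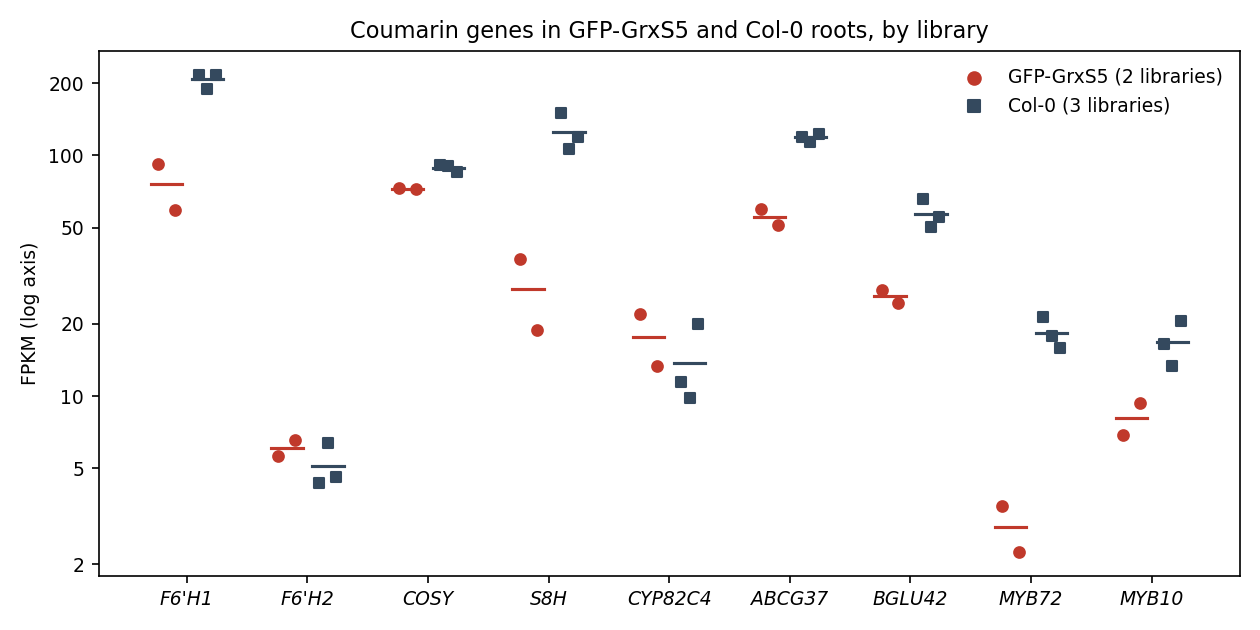
FPKM (log axis) of the 9 coumarin genes in each GFP-GrxS5 library (red circles) and each Col-0 library (dark squares), with a line at each group mean. The GFP-GrxS5 points lie below all Col-0 points for 7 genes, and the groups overlap for F6'H2 and CYP82C4.

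GrxS5 itself stood at 103 and 124 FPKM in GFP-GrxS5 replicates 1 and 2, against 3.06, 4.14 and 3.23 FPKM in Col-0 libraries. It rose by 4.68 in log2 units (limma, Benjamini-Hochberg adjusted p = 2.84e-05), and fusion and native transcripts are not separated. Over all genes tested, 462 were lower and 932 higher (66.9% of calls higher), and quantile normalization gave 648 lower and 789 higher (54.9% higher). Leaving out 1 library left 141 to 235 lower and 225 to 585 higher, the fewest lower without GFP-GrxS5 replicate 2 and the fewest higher without GFP-GrxS5 replicate 1. The depth estimated from the steps of low FPKM values was 4300000 and 3370000 fragments in GFP-GrxS5 libraries, and 4410000, 3810000 and 4170000 in Col-0 libraries. Library kits and sequencers of 2 kinds are named in the labels but not assigned to libraries, so batch and genotype cannot be told apart. Root marker genes were present in all libraries, and the lists of 10 epidermis, 9 cortex and endodermis and 10 stele markers had 0 genes that fell. PRP3 of the epidermis and CASP5 of the endodermis rose by 0.46 and 0.86 in log2 units (limma, Benjamini-Hochberg adjusted p = 0.0418 and 0.0342). Each of these calls was lost whichever 1 of the 5 libraries was left out (adjusted p from 0.0362 to 0.18 and from 0.0331 to 0.174 over all alternatives). The epidermis markers summed to 424 to 429.8 FPKM in GFP-GrxS5 and 348 to 389.7 FPKM in Col-0 libraries, with PRP3 the largest part of each sum. Only GL2 and WER of the 10 epidermis markers had negative log2 changes, at -0.35 and -0.34. For both genes the GFP-GrxS5 libraries lay below all Col-0 libraries. Neither was called (limma, 0.159 and 0.176 after Benjamini-Hochberg adjustment), so the epidermis markers did not all move the same way. Cortex and endodermis markers summed to 418 to 459.7 FPKM in GFP-GrxS5 and 359 to 380.8 FPKM in Col-0 libraries. Stele markers summed to 475 to 481.5 FPKM in GFP-GrxS5 and 412 to 449 FPKM in Col-0 libraries. Leaf photosynthesis markers moved with genotype. Of 20, 18 were tested and 15 rose, against 4.73% of all genes tested called higher. The 20 summed to 1897 to 1913 FPKM in GFP-GrxS5 and 867 to 1005 FPKM in Col-0 libraries. RBCS1A, RBCS3B, LHCB1.3 and PSBO1 rose by 1.22, 1.79, 1.43 and 0.89 in log2 units (limma, Benjamini-Hochberg adjusted p from 6.15e-04 to 0.00275). Without GFP-GrxS5 replicate 1, GFP-GrxS5 replicate 2 or Col-0 replicate 1, 8, 9 and 9 of them were called. RBCS2B was listed at 0 in Col-0 replicates 1 and 2, none of the 20 was at 0 in every library of a group, and their part in the coumarin result was not tested.

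The promoters of F6'H1, S8H and CYP82C4 are shown because these genes encode hydroxylases of one pathway, of which F6'H1 and S8H fell and CYP82C4 was not called. Each sequence is the 250 bases before the gene start in the RefSeq annotation of TAIR10.1, read 5′ to 3′ on the plus strand, which is the strand of all 3 genes. They lie at chr3:4449009-4449258 for F6'H1, chr3:4104213-4104462 for S8H and chr4:15451738-15451987 for CYP82C4. For F6'H1 and S8H the RefSeq start lies upstream of the start in the deposited coordinates, and for CYP82C4 the starts agree. Capitals mark matches to the E-box CANNTG, a motif that basic helix-loop-helix factors bind, and to the AC elements ACCTACC and ACCAACC as well as ACCTAAC, which MYB factors of this class bind.
F6'H1: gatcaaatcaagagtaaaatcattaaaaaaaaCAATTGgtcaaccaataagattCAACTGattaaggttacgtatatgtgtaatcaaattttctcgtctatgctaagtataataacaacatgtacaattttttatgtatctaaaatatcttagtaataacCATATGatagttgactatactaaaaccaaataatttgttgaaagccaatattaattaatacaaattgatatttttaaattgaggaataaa
S8H: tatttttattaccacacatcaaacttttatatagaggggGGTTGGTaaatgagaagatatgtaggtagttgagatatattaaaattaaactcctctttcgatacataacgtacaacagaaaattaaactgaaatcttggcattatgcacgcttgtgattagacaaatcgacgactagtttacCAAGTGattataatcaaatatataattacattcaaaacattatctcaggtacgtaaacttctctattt
CYP82C4: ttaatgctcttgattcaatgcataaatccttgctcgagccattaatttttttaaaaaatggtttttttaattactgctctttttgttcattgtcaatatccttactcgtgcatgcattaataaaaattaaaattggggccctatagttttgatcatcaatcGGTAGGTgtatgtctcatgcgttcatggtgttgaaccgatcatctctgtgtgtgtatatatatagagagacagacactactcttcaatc

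F6'H1 held 3 E-boxes, starting at positions -218, -196 and -90 from the gene start, and no AC element. S8H held an AC element at -211 and an E-box at -68. CYP82C4 held an AC element at -89 and no E-box. Both AC elements match on the strand opposite to the one printed. Motifs were counted on both strands in windows from 250 bases before to 50 bases after the start. An E-box was present in 6 of the 9 coumarin genes, against 61.8% of 27431 promoters of protein-coding genes. BGLU42 and MYB72, which fell, held 0 E-boxes, while F6'H2 and COSY, which were not called, held 1 each. An AC element was present in 2 of 9, against 7.31%. The G-box CACGTG, which is itself an E-box, was present in 0 of 9, against 7.7%. The TGA core TGACG, part of the sites that TGA factors bind, was present in 2 of 9, namely MYB72 at -131 and F6'H2 at -88 and 24, against 23.1% of promoters. The annotated MYB72 model has no 5′ untranslated part, so the bases before its start run up to the first coding base. These matches describe letters in the window and were not tested as binding sites.

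F6'H1, which encodes the enzyme that commits feruloyl-CoA to coumarins (AT3G13610; chromosome 3), had 92.4 and 59.2 FPKM in the GFP-GrxS5 libraries, against 215, 189 and 217 FPKM in the Col-0 libraries. The groups were far apart, and the GFP-GrxS5 libraries differed more from each other than the Col-0 libraries did. F6'H1 averaged 75.8 ± 23.5 FPKM in GFP-GrxS5 roots (SD, n = 2) and 207 ± 15.5 FPKM in Col-0 roots (SD, n = 3), so the GFP-GrxS5 mean was 36.6% of the Col-0 mean. It fell by 1.47 in log2 units (SE 0.17; limma, Benjamini-Hochberg adjusted p = 0.00421). The files list it under one locus, 4449374 to 4452624 on TAIR10, together with AT3G13620, annotated on the opposite strand. AT3G13620 had 8.49 and 6.77 FPKM in GFP-GrxS5 libraries, against 7.73, 6.57 and 8.90 FPKM in Col-0 libraries (log2 change not called, limma with Benjamini-Hochberg adjusted p = 0.971). Whether counting used strand is unknown, so reads of these opposite-strand genes may be mixed.

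F6'H2, a second feruloyl-CoA hydroxylase gene (AT1G55290; chromosome 1, 20626121 to 20627488), stood far lower than F6'H1 and did not pass. It had 5.65 and 6.55 FPKM in the GFP-GrxS5 libraries, against 4.37, 6.39 and 4.62 FPKM in the Col-0 libraries. The groups overlapped. Its log2 change was 0.22 with a 95% interval of -0.23 to 0.68 (limma, Benjamini-Hochberg adjusted p = 0.528). These values rest on an estimated 26.6 to 33.6 fragments a library, and the interval leaves room for a moderate change in either direction. F6'H2 made up 5.76% and 9.97% of the summed F6'H1 and F6'H2 FPKM in GFP-GrxS5 libraries, against 1.99%, 3.27% and 2.09% in Col-0 libraries. The share depends on both genes, of which F6'H1 was called lower and F6'H2 was not called, so it shows no gain of F6'H2.

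COSY, the coumarin synthase gene (AT1G28680; chromosome 1, 10077923 to 10080029, a locus shared in the files with AT1G28685), did not pass. It had 73.2 and 72.4 FPKM in GFP-GrxS5 libraries, against 91.3, 90.4 and 85.4 FPKM in Col-0 libraries. The groups did not overlap, but the difference was small, at 81.8% of the Col-0 mean. The log2 change was -0.29 with a 95% interval of -0.45 to -0.12 before adjustment, and it missed the threshold (limma, unadjusted p = 0.00449 and Benjamini-Hochberg adjusted p = 0.0571). It passed under quantile normalization, with a log2 change of -0.35 (adjusted p = 0.0312; the alternatives spanned 0.0312 to 0.17). AT1G28685, on the opposite strand, was low, with a log2 change of -0.25 (limma, Benjamini-Hochberg adjusted p = 0.644).

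S8H, the scopoletin 8-hydroxylase gene (AT3G12900; chromosome 3, 4104576 to 4106112), had the largest fall among the synthesis genes. It had 37.0 and 18.7 FPKM in GFP-GrxS5 libraries, against 150.5, 106 and 119 FPKM in Col-0 libraries. No GFP-GrxS5 value came near the Col-0 range, and the 2 GFP-GrxS5 libraries themselves differed widely. S8H averaged 27.9 ± 12.9 FPKM in GFP-GrxS5 roots (SD, n = 2) and 125 ± 22.7 FPKM in Col-0 roots (SD, n = 3), which is 22.3% of the Col-0 mean. It fell by 2.19 in log2 units (SE 0.26; limma, Benjamini-Hochberg adjusted p = 0.00467). Without GFP-GrxS5 replicates 1 and 2 in turn the log2 change was -2.66 and -1.72, and the call held both times.

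CYP82C4, the fraxetin 5-hydroxylase gene (AT4G31940; chromosome 4, 15451988 to 15454160), comes right after S8H in the pathway and was not called. It had 21.8 and 13.4 FPKM in GFP-GrxS5 libraries, against 11.5, 9.83 and 20.02 FPKM in Col-0 libraries. The groups overlapped, with 1 high library in each. Its log2 change was 0.36 with a 95% interval of -0.36 to 1.07 (limma, Benjamini-Hochberg adjusted p = 0.521). The value depended on single libraries, at 0.02 without GFP-GrxS5 replicate 1, 0.69 without GFP-GrxS5 replicate 2, 0.16 without Col-0 replicate 2 and 0.64 without Col-0 replicate 3, and none of these passed (adjusted p from 0.194 to 0.976 in these 4 fits). The interval, which is before adjustment and reflects only these libraries, does not reach a fall of the size seen for S8H or F6'H1. The neighbouring paralogs were near silent: CYP82C2 was listed at 0 in both GFP-GrxS5 libraries and at 0.342 to 0.467 FPKM in Col-0 libraries, and CYP82C3 at 0 in every library.

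The level of CYP82C4 was 59.0% and 71.5% of that of S8H in GFP-GrxS5 libraries, against 7.62%, 9.25% and 16.8% in Col-0 libraries. Log2 ratios were also taken within each library, on FPKM + 1. The log2 ratio of CYP82C4 to S8H was -0.73 and -0.46 in GFP-GrxS5 libraries, against -3.60, -3.31 and -2.51 in Col-0 libraries, a difference of 2.55. The log2 ratio of S8H to F6'H1 was -1.30 and -1.61 in GFP-GrxS5 libraries, against -0.52, -0.83 and -0.86 in Col-0 libraries, a difference of -0.72. The log2 ratio of F6'H2 to F6'H1 differed by 1.69 and that of MYB10 to MYB72 by 1.38. That of ABCG37 to F6'H1 differed by 0.38, and by 0.18 without GFP-GrxS5 replicate 2 and 0.59 without GFP-GrxS5 replicate 1. All 5 ratios computed separated the 2 groups without overlap. Each difference equals that between the log2 changes of its 2 genes, so it is no separate result. Every pair holds a gene called lower, and the share of other gene pairs that separate in this way was not computed. Each ratio had an exact two-sided permutation p of 0.1 over 10 arrangements, and 0.1 after Benjamini-Hochberg adjustment over the 5. That is the smallest p that this exact permutation test can give with 2 against 3 libraries, so it cannot reach 0.05 for a single ratio.

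**Figure D2:**
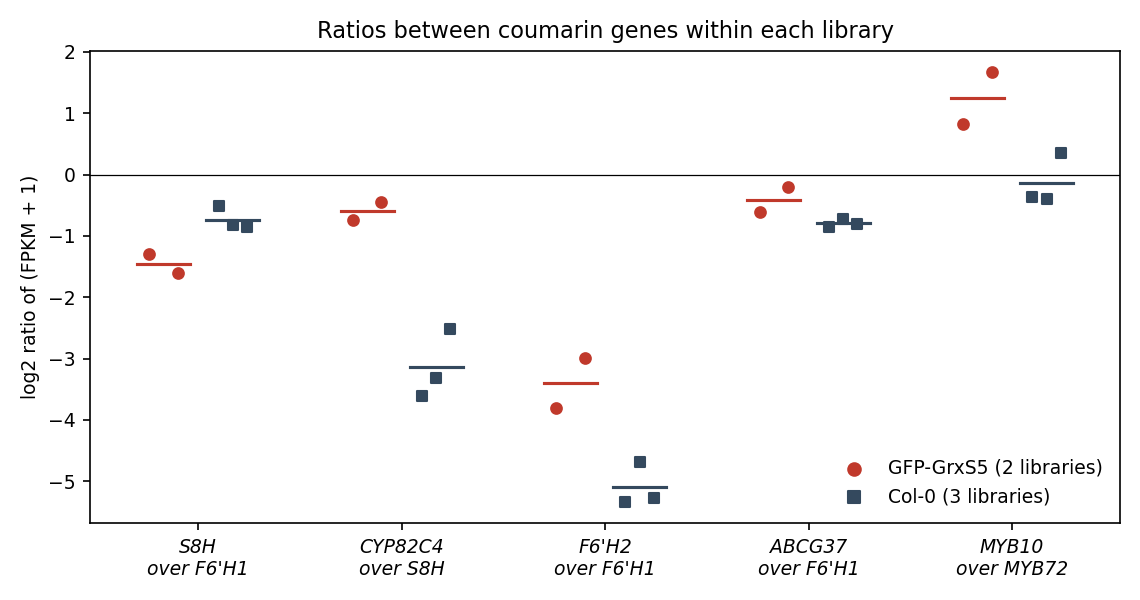
Log2 ratios of (FPKM + 1) between pairs of coumarin genes within each GFP-GrxS5 library (red circles) and each Col-0 library (dark squares), with a line at each group mean. The CYP82C4 to S8H ratio averaged -0.59 in GFP-GrxS5 and -3.14 in Col-0 roots, the widest gap of the 5 pairs.

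ABCG37, the exporter gene (AT3G53480; chromosome 3, 19825307 to 19831797), had 59.9 and 51.2 FPKM in GFP-GrxS5 libraries, against 119, 114 and 123 FPKM in Col-0 libraries. Its libraries agreed closely within each group, and the GFP-GrxS5 mean was 46.8% of the Col-0 mean. ABCG37 fell by 1.09 in log2 units (SE 0.09; limma, Benjamini-Hochberg adjusted p = 0.00116). With an estimated 808 to 2460 fragments a library it is the most deeply covered of the 9 genes. BGLU42 (AT5G36890; chromosome 5, 14541350 to 14546230) had 27.6 and 24.3 FPKM in GFP-GrxS5 libraries, against 65.9, 50.5 and 55.5 FPKM in Col-0 libraries. The groups did not overlap, and the GFP-GrxS5 mean was 45.3% of the Col-0 mean. BGLU42 fell by 1.11 in log2 units (SE 0.13; limma, Benjamini-Hochberg adjusted p = 0.00389), a size close to that of ABCG37.

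Of 3 further beta-glucosidases that hydrolyse scopolin, the scopoletin glucoside, 0 passed, against 7.08% of all genes tested. BGLU21 averaged 428 ± 17.8 FPKM in GFP-GrxS5 roots (SD, n = 2) and 431 ± 23.6 FPKM in Col-0 roots (SD, n = 3). BGLU22 averaged 156 ± 10.13 and BGLU23 4288 ± 905 FPKM in GFP-GrxS5 roots (SD, n = 2), against 141 ± 16.7 and 3185 ± 444 FPKM in Col-0 roots (SD, n = 3). Their adjusted p ran from 0.163 to 0.955 (limma, Benjamini-Hochberg). Both GFP-GrxS5 values of BGLU23 lay above all Col-0 values, at a log2 change of 0.42 (95% interval 0.05 to 0.80 before adjustment). The 14 other full-size ABCG transporters of the PDR type had 10 tested members, of which 0 fell and 2 rose, with a median log2 change of -0.13. Of all genes tested, 2.35% were called lower and 4.73% higher. ABCG30, an importer of abscisic acid, averaged 20.6 ± 0.837 FPKM in GFP-GrxS5 roots (SD, n = 2) and 11.1 ± 1.03 FPKM in Col-0 roots (SD, n = 3). ABCG36, a defence transporter also called PEN3, averaged 104 ± 15.3 FPKM in GFP-GrxS5 roots (SD, n = 2) and 67.8 ± 4.68 FPKM in Col-0 roots (SD, n = 3). They rose by 0.83 and 0.61 in log2 units (limma, Benjamini-Hochberg adjusted p = 0.00995 and 0.0189). Both calls were lost without GFP-GrxS5 replicate 1 (adjusted p from 0.00723 to 0.0798 and from 0.0159 to 0.0997 over all alternatives). Without Col-0 replicate 1, Col-0 replicate 3 or GFP-GrxS5 replicate 2, 1 of the 2 was called.

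MYB72 (AT1G56160; chromosome 1, 21022384 to 21024402, a locus shared in the files with AT1G56165) had the largest fall of the 9 genes. It had 3.48 and 2.25 FPKM in GFP-GrxS5 libraries, against 21.3, 17.7 and 15.9 FPKM in Col-0 libraries. The GFP-GrxS5 mean was 15.6% of the Col-0 mean, and the groups were widely separated. MYB72 fell by 2.33 in log2 units (SE 0.19; limma, Benjamini-Hochberg adjusted p = 0.00117). With a pseudocount of 0.1 the fall was 2.66, since adding 1 FPKM compresses low values. The GFP-GrxS5 values rest on an estimated 15.5 and 7.85 fragments, so their counting error is large, while those of Col-0 rest on 68.5 to 97.3. AT1G56165 stayed under 1 FPKM in all libraries and was not tested. The order of MYB72 and S8H turned when GFP-GrxS5 replicate 1 was left out, at log2 changes of -2.56 and -2.66.

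MYB10 (AT3G12820; chromosome 3, 4074158 to 4075614) had 6.92 and 9.34 FPKM in GFP-GrxS5 libraries, against 16.4, 13.3 and 20.5 FPKM in Col-0 libraries. The groups did not overlap, at 48.6% of the Col-0 mean, but the gap was small beside the spread. MYB10 fell by 0.95 in log2 units (SE 0.20; limma, Benjamini-Hochberg adjusted p = 0.0341). This was the least secure of the 6 calls. It was lost without Col-0 replicate 1, Col-0 replicate 3, GFP-GrxS5 replicate 1 or GFP-GrxS5 replicate 2 (adjusted p = 0.0935, 0.0818, 0.17 and 0.084). It was also lost with no filter on low values or no variance trend (adjusted p = 0.0606 and 0.0837), and in 7 of 13 alternatives in all (adjusted p spanning 0.0271 to 0.17). In GFP-GrxS5 roots MYB72 stood below MYB10, at 2.87 ± 0.869 and 8.13 ± 1.71 FPKM (SD, n = 2). In Col-0 roots MYB72 and MYB10 had overlapping levels, 18.3 ± 2.78 and 16.7 ± 3.60 FPKM (SD, n = 3). Of the other MYB genes of the same subgroup, which regulate lignin synthesis, MYB58 averaged 1.499 ± 0.572 FPKM in GFP-GrxS5 roots (SD, n = 2) and 0.892 ± 0.278 FPKM in Col-0 roots (SD, n = 3). MYB63 averaged 11.8 ± 4.50 FPKM in GFP-GrxS5 roots (SD, n = 2) and 10.8 ± 1.83 FPKM in Col-0 roots (SD, n = 3). Neither passed (limma, Benjamini-Hochberg adjusted p = 0.446 and 0.849).

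**Figure D3:**
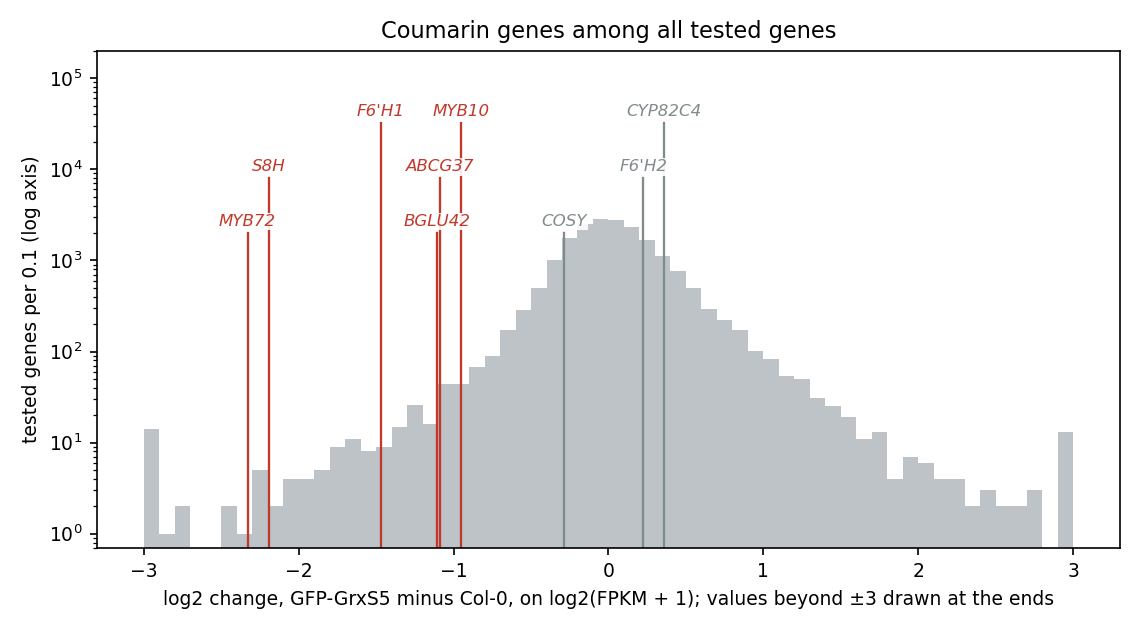
Log2 changes on log2(FPKM + 1), GFP-GrxS5 minus Col-0, of all 19693 genes tested (grey bars, number per bin of 0.1, log axis) with the 9 coumarin genes as lines, red where the call passed. MYB72 at -2.33 and S8H at -2.19 lie in the thin left tail, while F6'H2 at 0.22 and CYP82C4 at 0.36 lie in the bulk.

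Both GFP-GrxS5 libraries lay below all Col-0 libraries for 7 of the 9 genes, the 6 that fell and COSY, against 20.3% of all genes tested. The opposite arrangement, both above all Col-0 libraries, held for 0 of the 9 and for 22.6% of genes tested. Among the 6 genes that fell, GFP-GrxS5 replicate 2 had the lower value for F6'H1, S8H, ABCG37, BGLU42 and MYB72, and replicate 1 for MYB10. Summed over the 9 coumarin genes, the level was 328 and 257 FPKM in GFP-GrxS5 libraries, against 696, 598 and 661 FPKM in Col-0 libraries.

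The order of levels differed between the genotypes. In GFP-GrxS5 roots F6'H1 and COSY stood together at the top, at 75.8 and 72.8 FPKM, with overlapping ranges. Then came ABCG37, S8H and BGLU42, the last 2 with overlapping ranges, then CYP82C4, MYB10 and F6'H2, and MYB72 was lowest. In Col-0 F6'H1 led at 207 FPKM, above S8H at 125 and ABCG37 at 119, whose ranges overlapped, and COSY at 89.0 and BGLU42 at 57.3 followed. MYB72, MYB10 and CYP82C4 came next, each overlapping its neighbour, and F6'H2 was lowest at 5.13 FPKM.

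MYB10 and S8H lie 29.0 kb apart on chromosome 3. Of 8 features between them, 3 were tested, SAUR72, AT3G12860 and AT3G12870, named here after their values were seen. AT3G12870 had 26.7 and 29.4 FPKM in GFP-GrxS5 libraries, against 41.0, 40.3 and 41.8 FPKM in Col-0 libraries, and fell by 0.53 in log2 units (limma, Benjamini-Hochberg adjusted p = 0.0139). That call was lost in 4 of 13 alternatives, among them when Col-0 replicate 3 or GFP-GrxS5 replicate 1 was omitted (adjusted p = 0.0503 and 0.0865; 0.0104 to 0.0865 over the 13). SAUR72 and AT3G12860 did not pass, at log2 changes of -0.24 and -0.26 (limma, Benjamini-Hochberg adjusted p = 0.603 and 0.162).

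Of 14 genes that supply feruloyl-CoA, the substrate of F6'H1, 13 were tested, with a median log2 change of -0.16. Of these, 3 fell, 0 rose and 10 did not pass, against 2.35% of all genes tested called lower. The phenylalanine ammonia-lyase genes PAL1 and PAL2, which open the phenylpropanoid pathway, averaged 206 ± 33.8 and 104 ± 11.5 FPKM in GFP-GrxS5 roots (SD, n = 2), against 342 ± 6.78 and 151 ± 1.46 FPKM in Col-0 roots (SD, n = 3). They fell by 0.74 and 0.53 in log2 units (limma, Benjamini-Hochberg adjusted p = 0.00738 and 0.0116). 4CL3, a ligase gene tied mainly to flavonoids, averaged 12.6 ± 1.21 FPKM in GFP-GrxS5 roots (SD, n = 2) and 26.3 ± 2.36 FPKM in Col-0 roots (SD, n = 3), a fall of 1.01 in log2 units (limma, Benjamini-Hochberg adjusted p = 0.00448). CCoAOMT1, whose enzyme makes feruloyl-CoA, averaged 1179 ± 111 FPKM in GFP-GrxS5 roots (SD, n = 2) and 1162 ± 49.3 FPKM in Col-0 roots (SD, n = 3), a log2 change of 0.02 (limma, Benjamini-Hochberg adjusted p = 0.915). The PAL2 call was lost in 3 of 13 alternatives, among them without GFP-GrxS5 replicate 2 (adjusted p = 0.0592; 0.0094 to 0.0674 over the 13). In the monolignol branch, which draws on the same substrate, 0 of 5 genes passed, with a median log2 change of -0.04. Of all genes tested, 7.08% passed in either direction, so 0 of 5 is near that share.

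Regulators of the iron response, some of which act above MYB72 and MYB10, fell in part. Of 17 genes 8 fell, 0 rose and 9 did not pass, against 2.35% called lower and 4.73% called higher of all genes tested. The median log2 change of the 17 was -0.63. BTSL1 and BTSL2 were among the 8, at log2 changes of -1.06 and -0.63. Of those that did not pass, bHLH121, bHLH104, ILR3, bHLH115 and IMA3 had log2 changes from 0.02 to 0.40. The others, IMA1, bHLH34, PYE and BTS, ran from -0.74 to -0.16. Whether these regulators caused the changes of MYB72 and MYB10 was not tested. The bHLH genes bHLH38 and bHLH39 averaged 7.14 ± 1.03 and 14.0 ± 2.095 FPKM in GFP-GrxS5 roots (SD, n = 2), against 27.7 ± 1.69 and 34.0 ± 4.98 FPKM in Col-0 roots (SD, n = 3). They fell by 1.82 and 1.22 in log2 units (limma, Benjamini-Hochberg adjusted p = 0.000645 and 0.00456). FIT fell by 0.76 in log2 units (limma, Benjamini-Hochberg adjusted p = 0.00738). IMA2, an iron-signalling peptide gene, averaged 6.86 ± 1.24 FPKM in GFP-GrxS5 roots (SD, n = 2) and 20.7 ± 4.87 FPKM in Col-0 roots (SD, n = 3). Its log2 change was -1.45 (limma, Benjamini-Hochberg adjusted p = 0.00834). Without GFP-GrxS5 replicate 1, 4 of the 17 were called lower, and FIT and IMA2 were not among them (adjusted p = 0.0665 and 0.076; 0.00519 to 0.0665 and 0.00628 to 0.076 over all alternatives). Among 5 genes of reductive iron uptake 3 fell, the reductase gene FRO2 by 2.13, the transporter gene IRT1 by 1.78 and the proton pump gene AHA2 by 0.61 (limma, Benjamini-Hochberg adjusted p = 0.00142, 0.00314 and 0.0159). AHA2 lost its call in 4 of 13 alternatives, among them when Col-0 replicate 3 or GFP-GrxS5 replicate 2 was left out (adjusted p = 0.0515 and 0.0848; 0.0124 to 0.0848 over the 13).

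**Figure D4:**
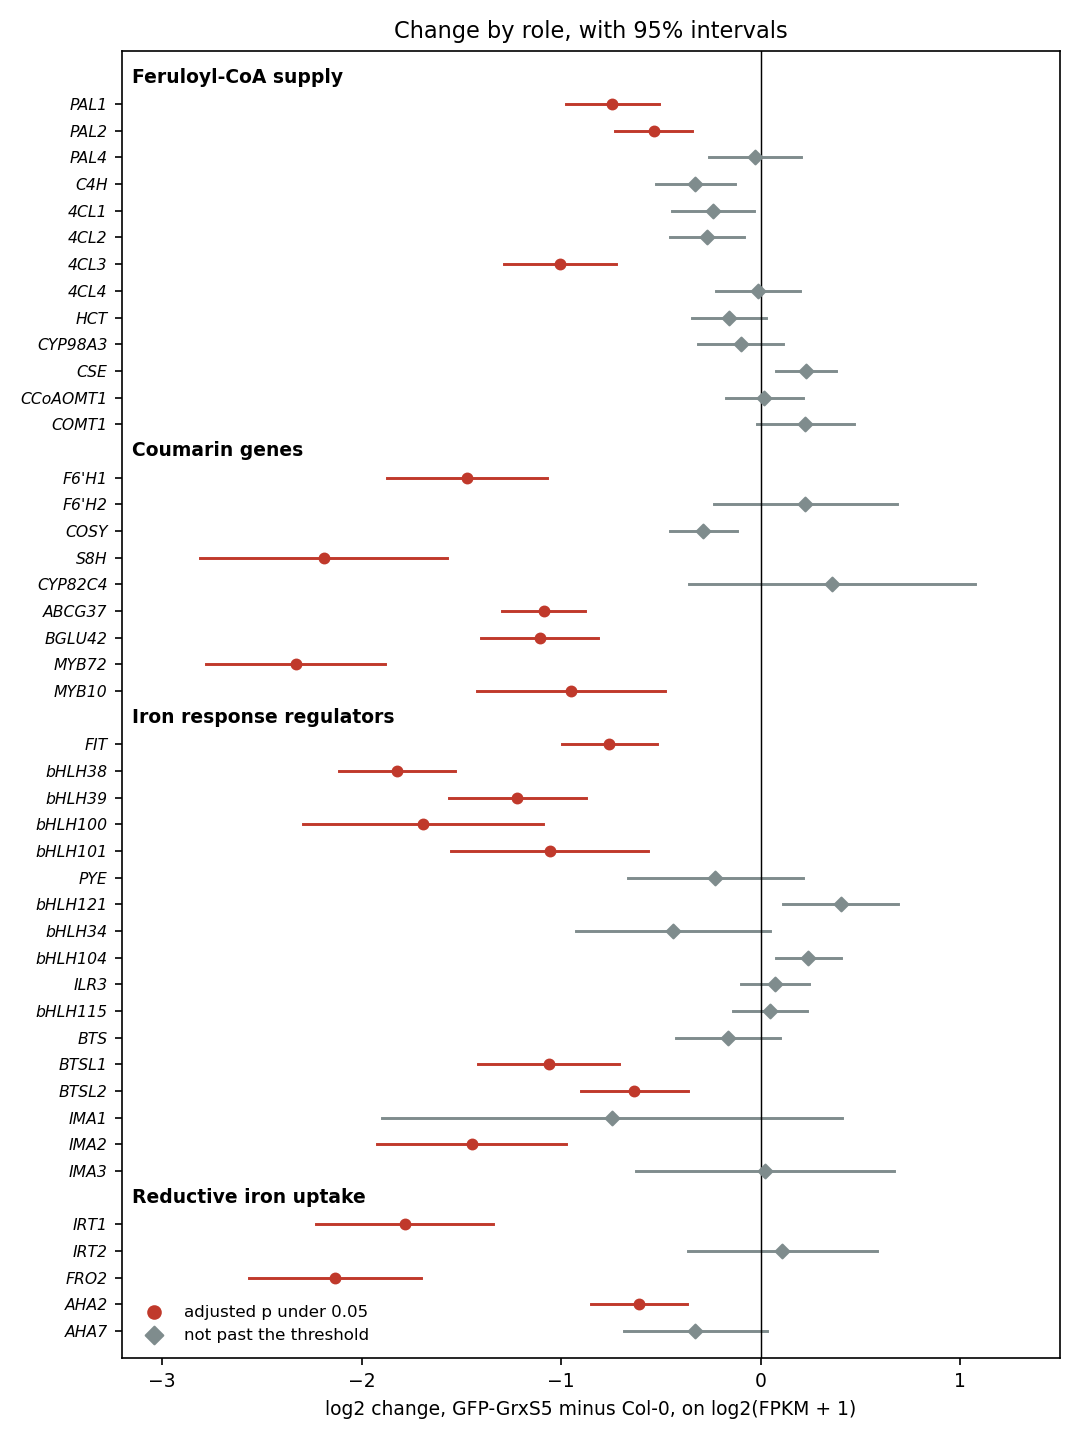
Log2 change on log2(FPKM + 1), GFP-GrxS5 minus Col-0, with its 95% interval, for tested genes of feruloyl-CoA supply, the coumarin genes, iron response regulators and reductive iron uptake. Red circles passed the threshold: 3 of 13 supply genes, 6 of 9 coumarin genes, 8 of 17 regulators and 3 of 5 uptake genes, all lower.

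The 6 genes outside the coumarin set whose profile over the 5 libraries was nearest to that of F6'H1, by Euclidean distance of centred log2(FPKM + 1), were AT3G07720, AT4G04745, NAS1, AT5G22390, CYP71B5 and AT2G16630. Their log2 changes ran from -1.66 for AT4G04745 to -1.30 for AT2G16630. The distance includes the difference between the groups, so similar falls and calls follow from how these 6 were picked. All 6 were called lower, and AT5G22390, CYP71B5 and AT2G16630, the lowest 3 of them in level, lost their call in 4 of 12, 1 of 13 and 5 of 12 alternatives. NAS1, a nicotianamine synthase gene, had 100 and 77.4 FPKM in GFP-GrxS5 libraries, against 234, 209.7 and 253 FPKM in Col-0 libraries. Among the coumarin genes ABCG37 and BGLU42 were nearest to F6'H1, with 36 and 37 genes outside the set closer. CYP82C4 was the farthest, with 16519 closer. These distances rest on the same 5 libraries as the log2 changes and are no separate result.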

How the data were processed

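Root RNA was sequenced in 2 GFP-GrxS5 and 3 Col-0 libraries, grouped by sample title. Per the labels, the genome build was TAIR10; the sources used here do not give the aligner, quantification program or strand setting. FPKM per gene were deposited by the authors, 1 file per library, with bounds equal to FPKM wherever status was OK, not used. Depth was estimated from the mode of FPKM times length of genes with 1 transcript of 1500 to 4000 bp; whole counts were not recovered, so no count model was fitted.

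The 19693 genes that reached 1 FPKM in 2 or more of the 5 libraries, with status OK throughout, were compared on log2(FPKM + 1) with limma 3.58.1 in R 4.3.3, two-sided, with a variance trend and Benjamini-Hochberg adjustment over all of them, threshold 0.05. Log2 changes are on that scale, which understates changes of low genes. The script was tested on simulated data. The 9 genes and the other lists were chosen with earlier results of these data known. Named were the 9, GrxS5, up to 4 genes per list with the smallest p among those called, the 6 nearest to F6'H1 and genes sharing a locus; CCoAOMT1, BGLU21 to BGLU23, MYB58, MYB63, the CYP82C paralogs and the genes between MYB10 and S8H were named outside this rule. Promoters were read from the TAIR10.1 genome, not from a ready promoter table, and 32804 of 32805 matched features overlapped their TAIR10.1 gene. Start and end were both identical for 8986 of them. List names are used for AT1G28680 (COSY), AT3G12900 (S8H) and AT1G47395 (IMA2), which the files give by identifier. Replicate numbers were not shown to pair libraries.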

Additional observations from a re-analysis of the deposited data

How the results depend on the processing

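The 13 alternatives changed the pseudocount (0.1 or 0.5), the low-value filter (none, or 5 FPKM), the scaling (median of ratios, or quantiles), the variance trend, the libraries (each left out in turn) and the block. F6'H1, S8H, ABCG37, BGLU42 and MYB72 stayed lower and past the threshold in all of them. The count of coumarin genes called lower ran from 5 to 7 over them, and from 5 to 6 without any 1 library, with MYB10 and COSY as the genes that crossed the threshold. The number of coumarin genes called higher was 0 throughout. Without a variance trend 184 genes in all were lower and 398 higher. Without 1 library, 141 to 235 were lower and 225 to 585 higher, so the background of calls itself depends on how many libraries enter. Among the results recomputed, 6 genes changed sign, none of them called. The log2 change of AT3G13620 ran from -0.1588 to 0.1288 when 1 library was left out and was 0.0798 with the replicate block. With 1 library left out, that of AT1G28685 ran from -0.5561 to 0.0493, CCoAOMT1 from -0.0776 to 0.115, BGLU21 from -0.0515 to 0.033, MYB63 from -0.2765 to 0.4549 and SAUR72 from -0.5062 to 0.032. The cause was not tested. Within-library ratios kept their sign with a pseudocount of 0.1 and without each library, and that of MYB10 to MYB72 was 1.63 with a pseudocount of 0.1.

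Replicates 1 and 2 occur in both groups. Deviations from the group means correlated at -0.039 for the pair numbered 1 and -0.008 for the pair numbered 2. Deviations of 2 GFP-GrxS5 libraries mirror each other, so the crossed pairs had 0.039 and 0.008. This check therefore cannot decide pairing, and the numbers were not taken to pair the libraries. Leaving out 1 GFP-GrxS5 library leaves a lone sample, assumed to vary like Col-0. With the replicate block, in which Col-0 replicate 3 has no partner, 176 genes in all were lower and 418 higher, and 5 coumarin genes were lower, with MYB10 not called (limma, Benjamini-Hochberg adjusted p = 0.104). The values of F6'H2 rest on an estimated 26.6 to 33.6 fragments a library, and its 95% interval ran from -0.23 to 0.68 on the log2 scale.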
